A study of Mus musculus with 12 samples.

Results

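The 9 genes described here encode enzymes that build and break down glycogen, the branched glucose polymer that cardiomyocytes store: *Gys1*, *Gyg*, *Gbe1*, *Ugp2*, *Pygm*, *Pygb*, *Gaa*, *Phka1* and *Phkg1*. They were chosen by name, for their part in the pathway and not for a measured value, although earlier results of these data were known. All 9 were found among the 48526 genes counted. The libraries came from adult mouse hearts of the *Ncam-1* line, which was kept on a C57BL/6 background and crossed with a *Cntn2*-EGFP BAC transgenic line kept on a CD1 background, so that every group, controls included, carried the GFP reporter. WT mice have intact *Ncam-1*, the gene of a neural cell adhesion molecule, and *Ncam-1* KO mice lack it in all cells of the body. Hearts were perfused and enzymatically dissociated, cells were incubated with TMRM, a dye taken up by mitochondria, and RFP+GFP+ cells were sorted as Purkinje cells (PCs) and RFP+GFP- cells as ventricular myocytes (VMs). Amplified RNA gave 12 libraries, 3 each of WT PC, KO PC, WT VM and KO VM.

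Glycogen synthesis starts on glycogenin, which primes a short glucose chain. UDP-glucose, made by UDP-glucose pyrophosphorylase, is then added by glycogen synthase, and branching enzyme introduces the branch points. Breakdown in the cytosol runs through glycogen phosphorylase, which is switched on when phosphorylase kinase phosphorylates it, while acid alpha-glucosidase degrades glycogen inside lysosomes. Purkinje cells are known for their glycogen-rich cytoplasm, and the comparison of PCs with VMs asks whether the transcripts of these enzymes differed between the sorted populations. The comparison of KO with WT asks the same of the loss of *Ncam-1*.

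Counts on genes ran from 13883427 to 42505705 per library, and 1532393 to 6761356 of them fell outside the mitochondrial genome. The 9 genes together took between 0.174% and 0.217% of the counts outside the mitochondrial genome. *Ncam1* had 34 to 116 counts in WT PCs, 0 to 9 in WT VMs, 0 or 1 in KO PCs and 0 in every KO VM library. WT PC replicate 2 stood apart: the share of its read pairs left unaligned was 63.9%, where the other 11 libraries had 18.8% to 24.7%, and 11847 genes had a count in it, against 13571 to 18129. Values that this library moved are given with and without it. The summed normalized count of 6 PC markers (*Cntn2*, *Gja5*, *Etv1*, *Scn10a*, *Pcp4* and *Irx3*) was 611 to 1441 in WT PCs and 177 to 1020 in KO PCs. It was 42.5 to 66.8 in WT VMs and 60.8 to 72.7 in KO VMs. *Irx3* alone hardly differed, with a log2 difference of 0.05 in PCs over VMs across genotypes. In KO against WT PCs 5 of the 6 had a lower estimate, *Pcp4* the lowest at -3.38. There 0 of 6 had an adjusted p under 0.05 by the edgeR quasi-likelihood test.

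Muscle phosphorylase (*Pygm*) and brain phosphorylase (*Pygb*) are close relatives, and their sequences are shown because their counts are compared with each other and because reads from shared stretches cannot be assigned to either gene. The first 75 coding bases of the 3 phosphorylase genes, from the transcripts of GENCODE release M21 on GRCm38, are given 5′ to 3′ with capitals wherever a base differs from *Pygm*. They lie at chr19:6384479-6384553 on the plus strand for *Pygm*, at chr2:150786868-150786942 on the plus strand for *Pygb* and at chr12:70227509-70227583 on the minus strand for liver phosphorylase (*Pygl*).
Pygm: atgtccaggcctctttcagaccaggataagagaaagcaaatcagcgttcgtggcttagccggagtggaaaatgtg
Pygb: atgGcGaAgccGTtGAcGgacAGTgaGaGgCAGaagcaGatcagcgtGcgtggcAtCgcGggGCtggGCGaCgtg
Pygl: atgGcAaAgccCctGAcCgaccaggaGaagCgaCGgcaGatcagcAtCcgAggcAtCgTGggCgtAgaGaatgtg

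*Pygb* differed from *Pygm* at 27 of these 75 bases and *Pygl* at 22. All 3 hold an agc codon at codon 15, bases 43 to 45, which encodes the serine that phosphorylase kinase phosphorylates. Over the whole coding sequences of *Pygm* (2526 bases) and *Pygb* (2529 bases), the longest run of identical bases was 62 bases long and began at coding base 865 of both:
Pygm and Pygb: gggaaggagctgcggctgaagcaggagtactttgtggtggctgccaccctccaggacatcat
This run is longer than the 50-base reads. It gave 13 windows of 50 bases that occur in both transcripts, or 0.460% of the windows of *Pygm* and 0.337% of those of *Pygb*, so reads from nearly all of either transcript could be assigned.

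The genes lie on 8 chromosomes in GRCm38, so no more than a pair shares one. *Gys1* is at chr7:45434844-45456619 (plus strand), *Gyg* at chr3:20122084-20155317 (minus), *Gbe1* at chr16:70313949-70569716 (plus) and *Ugp2* at chr11:21321138-21371201 (minus). *Gaa*, also on chromosome 11, is at chr11:119267887-119285454 (plus), *Pygm* at chr19:6384399-6398459 (plus) and *Pygb* at chr2:150786735-150831758 (plus). *Phka1* is at chrX:102513975-102644246 (minus) and *Phkg1* at chr5:129863421-129898549 (minus). Exons of *Phkg1* share 630 bases with *Sumf2* and those of *Gys1* share 310 bases with *Ruvbl2*, in both cases on the opposite strand, and the strand setting of the counting is not given in the sources used here. Of the 2325 windows of 50 bases along the *Phkg1* transcript, 581 also occur in another gene, and of those along *Gys1* 6.64% do, so the *Phkg1* counts are the least certain of the 9. *Gyg*, *Gbe1*, *Gaa* and *Phka1* had 0 such windows.

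Levels were compared between genes per kilobase of the principal transcript, on the normalized count scale (read counts scaled to a common library size), over all 12 libraries. Glycogenin (*Gyg*) had the highest mean at 588 ± 130 (SD, n = 12), followed by UDP-glucose pyrophosphorylase (*Ugp2*) at 522 ± 110, *Pygb* at 460 ± 80.4 and *Pygm* at 385 ± 41.5. Branching enzyme (*Gbe1*) stood at 140 ± 22.9. The muscle-type regulatory subunit of phosphorylase kinase (*Phka1*) at 39.7 ± 11.4, muscle-type glycogen synthase (*Gys1*) at 37.8 ± 7.98 and acid alpha-glucosidase (*Gaa*) at 37.5 ± 7.28 were alike in level, and the catalytic subunit *Phkg1* was lowest at 15.1 ± 4.75. The step from *Pygm* down to *Gbe1*, the step from *Gbe1* down to *Phka1* and the step from *Gaa* down to *Phkg1* were seen within each of the 12 libraries. Neighbours within the upper and the middle tier were not separated: *Gyg* was above *Ugp2* in 8 of 12 libraries, *Ugp2* above *Pygb* in 8, *Pygb* above *Pygm* in 9, *Phka1* above *Gys1* in 9 and *Gys1* above *Gaa* in 5. Per kilobase of all annotated exons in place of the principal transcript, *Ugp2* came before *Gyg*, at 456 and 426.

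**Figure D1:**
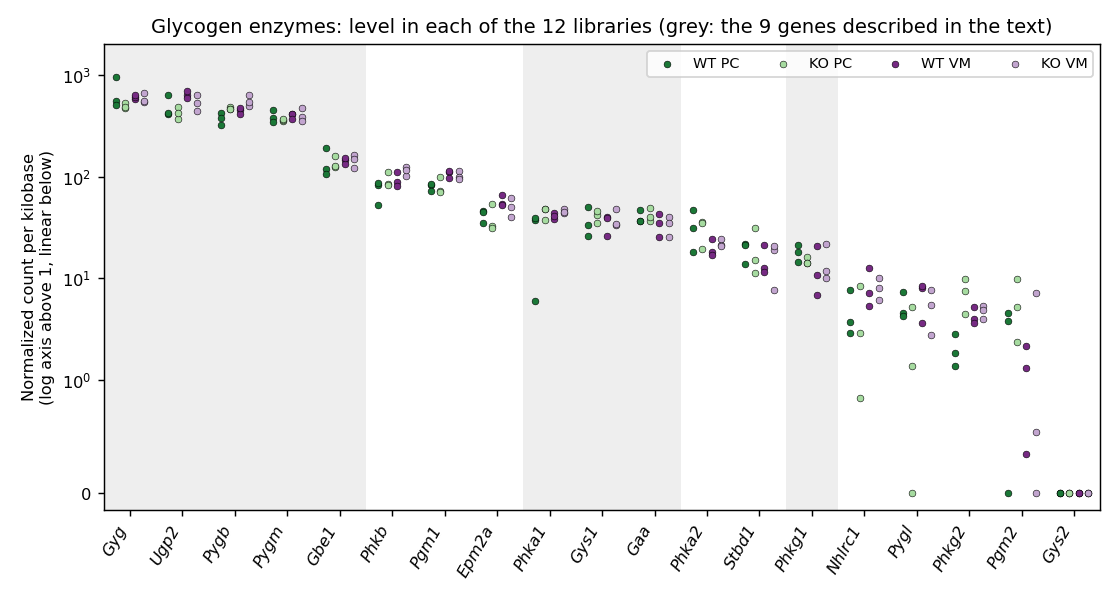
Normalized count per kilobase of the principal transcript (vertical axis, logarithmic above 1) for the 9 glycogen genes (grey columns) and 10 other glycogen enzymes and carriers, with 1 point per library coloured by group. *Gyg*, *Ugp2*, *Pygb* and *Pygm* form the upper tier, *Gys1* sits far lower with a mean of 37.8, and *Gys2* is at 0 in all 12 libraries.

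The phosphorylases were thus far above the synthase at the transcript level. The sum of *Pygm* and *Pygb* per kilobase was 23.2 ± 4.91 times the *Gys1* level (SD, n = 12), with a lowest library of 13.8 and a highest of 32.3. The group means of this ratio were 22.5 in WT PCs, 20.4 in KO PCs, 24.9 in WT VMs and 25.1 in KO VMs. With all 12 libraries the groups overlapped. The lowest value, 13.8, was that of WT PC replicate 2. WT PC replicates 1 and 3 were at 26.1 and 27.7, above the means of both VM groups. They also lay above all KO PC libraries, whose highest was 23.5. Liver-type synthase (*Gys2*) had 0 counts in all 12 libraries, which allows up to 3 counts in each (counting error only), and liver phosphorylase (*Pygl*) had 0 to 43 counts per library. The muscle and brain isoforms therefore made up nearly all counted phosphorylase transcripts.

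Of the 9 genes, 0 passed the adjustment in any comparison between groups. Each was tested in every comparison, with a mean normalized count above 5, by the quasi-likelihood test of edgeR, and p-values were adjusted by the Benjamini-Hochberg method across every gene in the fit. The differences are log2 fold changes, PC over VM or KO over WT, and a gene was called at an adjusted p under 0.05. In PCs against VMs over both genotypes, 0 of 9 were called where 1.34% of 11533 genes were, and 2 of 9 had an unadjusted p under 0.05 where 11.7% of all genes did. The median log2 difference of the 9 was -0.07, and that of all genes tested was 0.02. DESeq2's Wald test and limma voom also called 0 of the 9 in this comparison and also put 2 of them at an unadjusted p under 0.05.

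**Figure D2:**
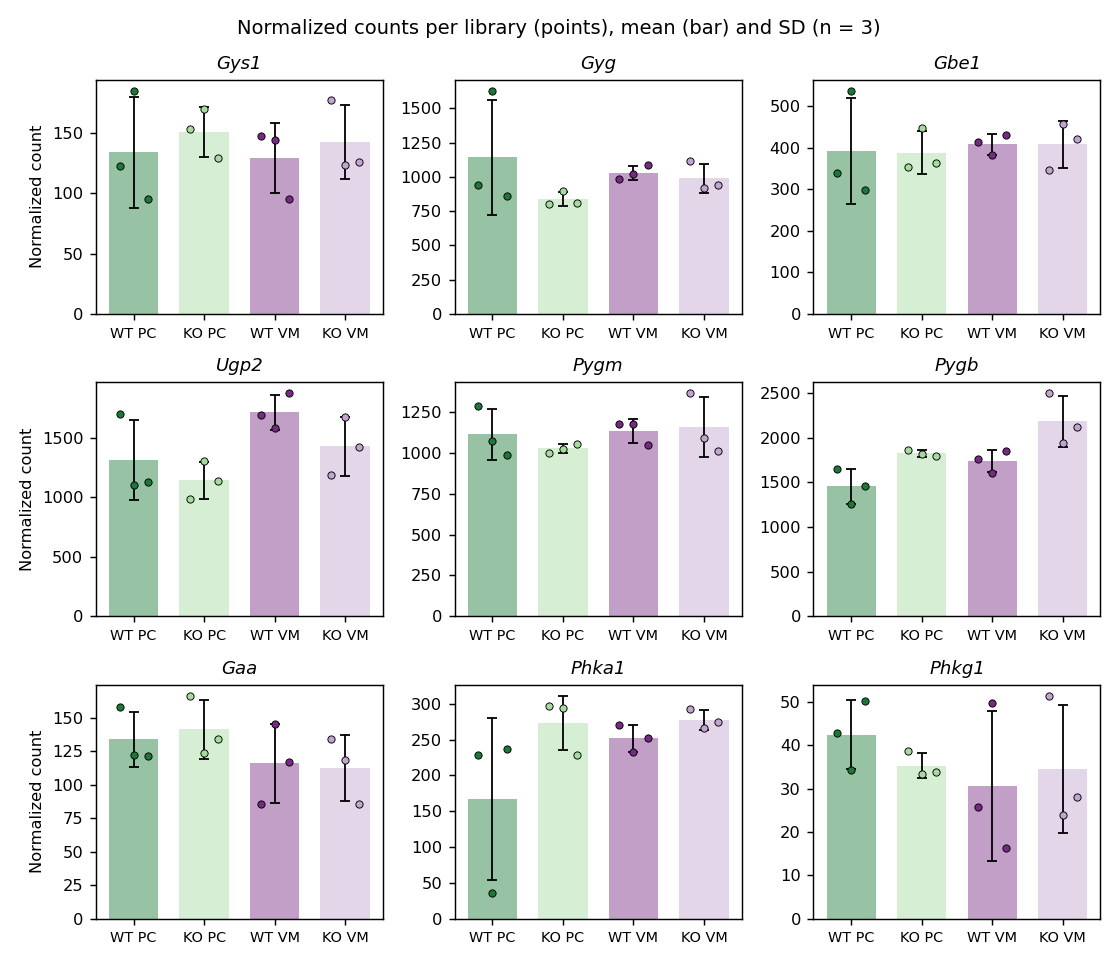
Normalized count (vertical axes, starting at 0) of each of the 9 genes in the 12 libraries (points), with the mean (bar) and SD (error bar) of the 3 libraries of each group. Within most panels the spread inside a group is as wide as the steps between groups, and the low *Phka1* point and the high *Gyg* point in WT PC are both replicate 2.

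Among the genes of synthesis, *Ugp2*, whose product supplies UDP-glucose, had normalized counts of 1704, 1105 and 1132 in the WT PC libraries and 990, 1302 and 1137 in the KO PC libraries. In VMs it had 1692, 1584 and 1874 in WT and 1185, 1678 and 1425 in KO. WT VMs were the highest group, and of the PC libraries only WT PC replicate 1 reached their range. Over both genotypes the PC to VM difference was -0.35 ± 0.138 (SE; fold 0.783, 95% interval 0.640 to 0.958; unadjusted p = 0.0207, adjusted p = 0.287, edgeR quasi-likelihood test). At an unadjusted p under 0.05, 2.91% of all genes were lower in PCs, and *Ugp2* and *Pygb* were the 2 of 9 among them. The difference was -0.42 ± 0.233 in WT (adjusted p = 0.814) and -0.32 ± 0.156 in KO (adjusted p = 0.533), by the same test. Without WT PC replicate 2 the estimate over both genotypes was -0.30, and the unadjusted p was under 0.05 in 9 of the 12 fits that left out 1 library.

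Glycogenin, the primer protein encoded by *Gyg*, had normalized counts of 941, 1627 and 857 in WT PC and of 802, 895 and 812 in KO PC libraries. The value of 1627 in WT PC replicate 2 stood well above the other 11 libraries, whose highest was 1113. WT VMs had 981, 1019 and 1083 and KO VMs 1113, 916 and 940, so the 2 VM groups overlapped. The PC to VM difference over both genotypes was -0.05 ± 0.155 (adjusted p = 0.952, edgeR quasi-likelihood test), and -0.22 ± 0.0972 without WT PC replicate 2 (unadjusted p = 0.0345, adjusted p = 0.280, same test). Without that library 3 of the 9 genes, *Gyg*, *Pygb* and *Ugp2*, were thus at an unadjusted p under 0.05. Over the 12 libraries the coefficient of variation of *Gyg* was 22.1%, and 10.8% without that library.

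*Gys1*, the synthase of muscle and heart, ran from 94.9 to 185 normalized counts in WT PCs, 129 to 170 in KO PCs, 95.4 to 148 in WT VMs and 123 to 178 in KO VMs. All 4 ranges overlapped. Its PC to VM difference was 0.06 ± 0.197, with a 95% interval of the fold from 0.779 to 1.39 (adjusted p = 0.955, edgeR quasi-likelihood test), and the estimate was -0.069 without WT PC replicate 2. *Gbe1*, the branching enzyme, ran from 299 to 537 in WT PCs, 355 to 448 in KO PCs, 382 to 431 in WT VMs and 348 to 459 in KO VMs. These ranges overlapped as well, the difference was -0.07 ± 0.153, and the interval of the fold was 0.759 to 1.19 (adjusted p = 0.912). Without WT PC replicate 2 the *Gbe1* estimate was -0.20 ± 0.120 (adjusted p = 0.469, same test). In WT alone it was -0.11 ± 0.260, and -0.37 ± 0.178 without that library (adjusted p = 0.950 and 0.499, same test). The other WT PC libraries, at 340 and 299, lay below all WT VM libraries.

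Among the genes of breakdown, *Pygm*, the phosphorylase isoform of skeletal muscle, had the lowest coefficient of variation of the 9 over the 12 libraries, 10.8%. Without WT PC replicate 2 *Phka1*, at 10.3%, and *Gyg*, at 10.8%, were below it at 11.2%. Its normalized counts were 1285, 1071 and 984 in WT PC libraries, 1002, 1026 and 1054 in KO PC libraries, 1174, 1179 and 1051 in WT VMs and 1364, 1093 and 1013 in KO VMs. No group stood apart. The PC to VM difference was -0.10 ± 0.117, and the 95% interval of the fold was 0.787 to 1.11 (adjusted p = 0.823, edgeR quasi-likelihood test).

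*Pygb*, the isoform named for brain, had normalized counts of 1650, 1258 and 1455 in WT PC and of 1866, 1816 and 1791 in KO PC libraries. In VMs it had 1766, 1604 and 1845 in WT and 2496, 1935 and 2118 in KO. Within each genotype the PC mean lay under the VM mean. The PC library was the lower one in 3 of 3 same-numbered WT pairs, as it was for *Phka1*. For *Gys1*, *Gyg*, *Gbe1*, *Ugp2* and *Pygm* it was lower in 2 of 3, and for *Gaa* and *Phkg1* in 1 of 3. The share of all genes with 3 of 3 was not computed. In KO the PC and VM libraries of *Pygb* did not overlap. In KO the same held for *Gyg*, so 2 of 9 genes had all PC libraries below all VM libraries, where 6.88% of all genes tested did. The PC to VM difference over both genotypes was -0.26 ± 0.111 (fold 0.836, 95% interval 0.711 to 0.984; unadjusted p = 0.0330, adjusted p = 0.359, edgeR quasi-likelihood test). With 1 library left out the unadjusted p was under 0.05 in 8 of 12 fits. The difference was -0.29 ± 0.201 in WT (adjusted p = 0.838) and -0.26 ± 0.135 in KO (adjusted p = 0.585), by the same test.

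*Gaa*, the lysosomal enzyme, ran from 122 to 158 normalized counts in WT PCs, 124 to 167 in KO PCs, 85.8 to 145 in WT VMs and 85.5 to 134 in KO VMs. The PC ranges sat toward the upper end but overlapped the VM ranges. The difference of 0.27 ± 0.185 had a 95% interval of the fold from 0.919 to 1.58 (adjusted p = 0.635, edgeR quasi-likelihood test). *Phka1* had 229, 36.5 and 237 normalized counts in WT PCs, and the low value was 17 counts in WT PC replicate 2. KO PCs had 296, 294 and 229, WT VMs 271, 232 and 252, and KO VMs 293, 266 and 274, so that all libraries but that one lay between 229 and 296. The PC to VM difference was -0.29 ± 0.283 with it and -0.069 without it (adjusted p = 0.772 and 0.868, same test). *Phkg1*, with 16 to 89 counts per library, ran from 16.3 to 51.4 normalized counts, and its difference of 0.27 ± 0.316 left a 95% interval of the fold from 0.760 to 1.92 (adjusted p = 0.817).

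Within single genotypes the picture was the same. In WT, 0 of 9 were called in PCs against VMs, where 0.108% of 12035 genes were, and 0 of 9 had an unadjusted p under 0.05, where 6.31% did. The estimates in WT ran from -0.58 for *Phka1*, which was -0.13 without WT PC replicate 2, to 0.46 for *Phkg1*. Without that library they ran from -0.37 for *Gbe1* to 0.60 for *Phkg1*. In KO, 0 of 9 were called, against 0.863% of 10887 genes, and 0 of 9 had an unadjusted p under 0.05, against 9.72%. The KO estimates ran from -0.32 for *Ugp2* to 0.32 for *Gaa*. By DESeq2's Wald test 0 of 9 were called in either genotype and 0 had an unadjusted p under 0.05. Limma voom called 0 as well, with *Ugp2* at an unadjusted p under 0.05 in both. These fits entered PC and VM libraries as independent samples. With the replicate number as a block, 0 of 9 were at an unadjusted p under 0.05 in WT. In KO *Pygb* and *Ugp2* were, with the block and also with mitochondrial genes left out. Over the 13 alternative fits in KO, *Ugp2* was so in 6 and *Pygb* in 3, with 0 called.

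The PC libraries differed from the VM libraries in the markers of other cells too. The summed normalized count of 5 fibroblast markers was 679 to 1705 in PC libraries of either genotype and 68.6 to 352 in VM libraries, and that of 5 endothelial markers was 768 to 2584 against 101 to 711. Smooth muscle and pericyte markers summed to 1050 to 2584 against 268 to 1055, and leukocyte markers to 260 to 651 against 10.9 to 144. The 3 Schwann cell markers summed to 0 to 7.75 against 0 to 11.5, with *Sox10* at 0, and 0 of them passed the count filter. Of these lists, 4 of 5 fibroblast, 2 of 5 endothelial, 0 of 5 smooth muscle and pericyte and 1 of 5 leukocyte genes were called higher in PCs over both genotypes. The 6 cardiomyocyte markers summed to 158723 to 189255 in PC libraries and 155516 to 210881 in VM libraries, and 0 of 6 were called. The part of these other cells in the glycogen gene values was not tested. In sorted populations, fewer cells of a type and less RNA per cell cannot be told apart.

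**Figure D3:**
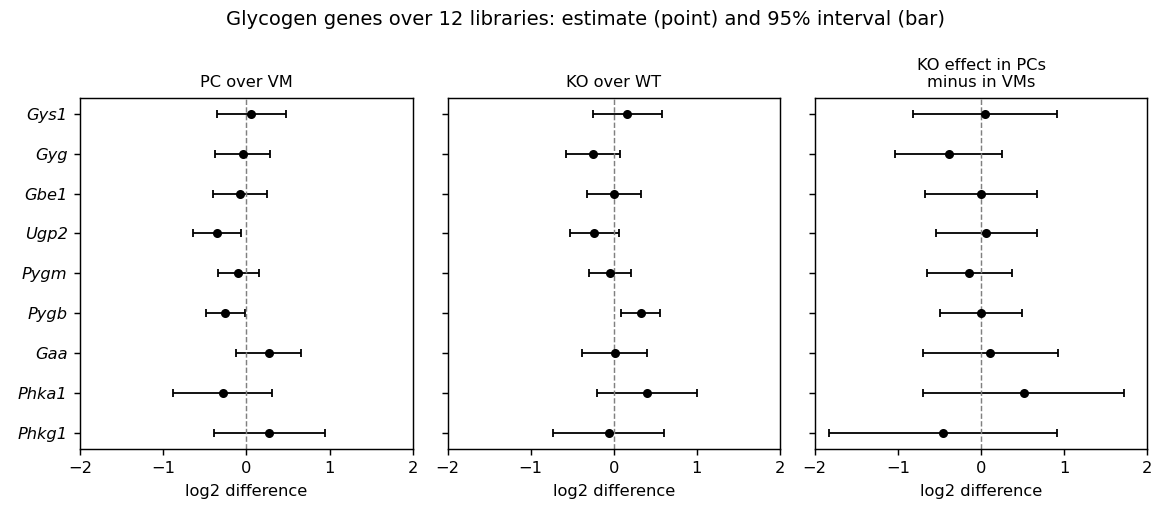
Log2 difference (horizontal axes) with its 95% interval for each of the 9 genes, in PCs over VMs across both genotypes (left), in KO over WT across both cell types (centre) and for the KO effect in PCs minus that in VMs (right), all from 12 libraries. The intervals of *Ugp2* and *Pygb* on the left and of *Pygb* in the centre leave out 0 before the adjustment, and the interaction intervals all include 0.

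The loss of *Ncam-1* was compared next. In KO against WT PCs, 0 of 9 glycogen genes were called, where 0% of 12093 genes were, and 0 of 9 had an unadjusted p under 0.05, where 3.26% of all genes did. The deleted gene itself, *Ncam1*, was thus not called by edgeR, with 34 to 116 counts in WT PCs and 0 or 1 in KO PCs. A count of 0 called here does not show that the genes were unchanged. DESeq2's Wald test called 7 of all genes and limma voom 1, none of them glycogen genes. In KO against WT VMs, 0 of 9 were called, where 0.0371% of 10780 genes were, and 1 of 9, *Pygb*, had an unadjusted p under 0.05, where 5.14% of all genes did and 1.86% did with a higher level in KO. This count rested on single libraries: it was 0 without KO VM replicate 1, without WT VM replicate 1, without WT VM replicate 2 and in 1 fit of all 12 libraries, and 2 (*Pygb* and *Ugp2*) without KO VM replicate 2. The comparisons of PCs with VMs and of KO with WT share libraries, so their values are set side by side and not tested against each other.

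With all 12 libraries *Pygb* was the 1 gene of the 9 whose KO and WT libraries did not overlap, and this was so in both cell types. In PCs its KO libraries (1791 to 1866) lay above its WT libraries (1258 to 1650), and in VMs the KO libraries (1935 to 2496) lay above the WT libraries (1604 to 1845). Among all genes tested, 4.82% had KO libraries above WT libraries without overlap in PCs and 4.59% in VMs. The KO to WT difference was 0.32 ± 0.211 in PCs (fold 1.25, 95% interval 0.905 to 1.73; adjusted p = 0.995, edgeR quasi-likelihood test). In VMs it was 0.32 ± 0.137 (fold 1.25, 95% interval 1.02 to 1.53; unadjusted p = 0.0315, adjusted p = 0.929, same test). Without WT PC replicate 2 the difference in PCs was 0.22.

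Markers of other cells also differed in level between KO and WT VMs, although 0 of them were called. The 5 endothelial markers tested had a median log2 difference of -0.53 and the 5 smooth muscle and pericyte markers one of -0.81, and all 10 estimates were negative. Among the latter, the smooth muscle myosin *Myh11* was at -1.90 ± 0.401 (adjusted p = 0.179) and the pericyte receptor *Pdgfrb* at -2.30 ± 0.722 (adjusted p = 0.804, edgeR quasi-likelihood test). The 6 cardiomyocyte markers had a median of 0.12, with 5 of 6 positive and *Ryr2*, the calcium release channel of the sarcoplasmic reticulum, highest at 0.48 ± 0.160 (adjusted p = 0.916). In KO against WT PCs the medians had the other sign for the first 2 lists. The endothelial median was 0.40, with 4 of 5 estimates positive, and the smooth muscle and pericyte median 0.60, with 3 of 5 positive. The cardiomyocyte median in PCs was 0.010, with 3 of 6 positive, and 0 of these markers were called there. The part of these markers' cells in the *Pygb* difference was not tested.

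A fit of the genotype effect over PCs and VMs together, with cell type as a term, was added after these values had been seen. In it *Pygb* had a difference of 0.33 ± 0.111 (fold 1.25, 95% interval 1.07 to 1.48; unadjusted p = 0.00917, adjusted p = 0.922, edgeR quasi-likelihood test). This fit entered PC and VM libraries as independent samples, although the WT libraries were taken as pairs. Its interval may therefore be too narrow and its p-value too small. The call did not pass: 0 of 9 glycogen genes were called, where 0.0347% of 11533 genes were. At an unadjusted p under 0.05 stood 1 of 9, where 5% of all genes did and 1.63% did with a higher level in KO. The median log2 difference of the 9 was 0.00094 and that of all genes tested was -0.02. DESeq2's Wald test and limma voom also called 0 of 9, with *Pygb* at an unadjusted p under 0.05 in both.

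The balance between *Pygb* and *Pygm* was also read within each library. In WT PCs *Pygb* took 56.2%, 54.0% and 59.7% of the counts of *Pygb* and *Pygm* together, and in KO PCs 65.1%, 63.9% and 63.0%. The widest 95% Wilson interval, that of WT PC replicate 2, was 51.0% to 57.0% and covers counting error only. In WT VMs the shares were 60.1%, 57.6% and 63.7%, and in KO VMs 64.7%, 63.9% and 67.6%. The KO shares lay above the WT shares in both cell types, but in VMs by no more than the step from 63.7% to 63.9%, which is within their intervals. Per kilobase, the ratio of *Pygb* to *Pygm* was 0.965 ± 0.113 in WT PCs, 1.31 ± 0.0601 in KO PCs, 1.13 ± 0.148 in WT VMs and 1.39 ± 0.125 in KO VMs (SD, n = 3). These shares use the same *Pygb* counts as the comparison above and are given as a description, with no test.

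**Figure D4:**
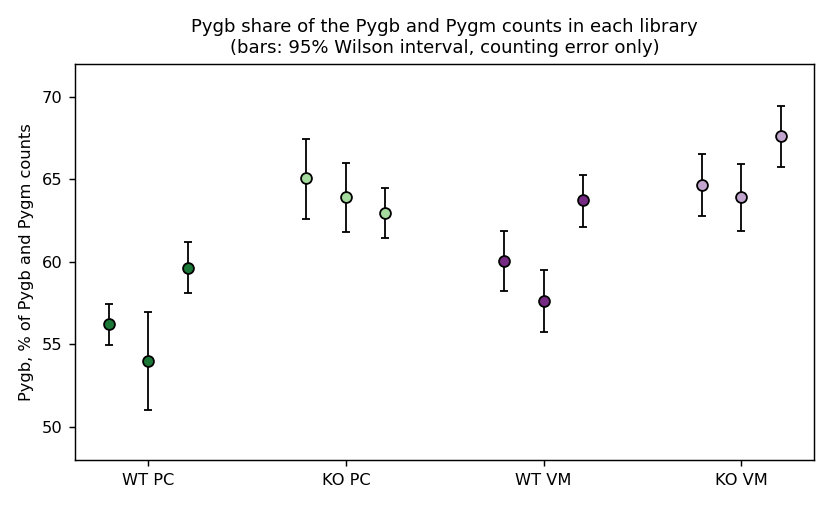
Share of *Pygb* in the counts of *Pygb* and *Pygm* together (vertical axis, percent, from 48 to 72) in each of the 12 libraries, by group, with 95% Wilson intervals. The KO PC libraries sit at 63.0% to 65.1% and the WT PC libraries at 54.0% to 59.7%, and the gap in VMs is narrower.

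With all 12 libraries the other genes gave smaller or less even differences between genotypes. *Ugp2* was at -0.20 ± 0.253 in PCs and -0.27 ± 0.147 in VMs (adjusted p = 0.995 and 0.960, edgeR quasi-likelihood test), and -0.23 ± 0.138 in the added fit over both (adjusted p = 0.922). *Gyg* was at -0.44 ± 0.271 in PCs, a value that was -0.12 without WT PC replicate 2. *Phka1* was at 0.66 ± 0.526 in PCs and at 0.21 without that library. Over both cell types *Phka1* was at 0.40 ± 0.283 and *Gyg* at -0.25 ± 0.155, and at 0.18 and -0.077 without it. *Gys1* was at 0.16 ± 0.197, *Gbe1* at 0.00094 ± 0.153, *Pygm* at -0.04 ± 0.117, *Gaa* at 0.01 ± 0.185 and *Phkg1* at -0.06 ± 0.316, each with an adjusted p of 0.922 or more by the same test. Without WT PC replicate 2, *Gys1* was at 0.45 ± 0.267, *Gbe1* at 0.27 ± 0.209 and *Pygb* at 0.22 ± 0.168 in PCs. Over both cell types *Gys1* and *Pygb* were then each at 0.29 and *Gbe1* at 0.13. *Ugp2* was at -0.28 ± 0.120 (unadjusted p = 0.0279, adjusted p = 0.769, same test). In that fit 2 of 9, *Pygb* and *Ugp2*, had an unadjusted p under 0.05, where 688 of 11559 genes did.

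Whether the KO effect differed between PCs and VMs was tested as an interaction over all 12 libraries. Of the 9 genes 0 were called, where 0% of 11533 genes were by edgeR's quasi-likelihood test, by DESeq2 or by limma voom, and 0 of 9 had an unadjusted p under 0.05, where 2.95% of all genes did. The estimates ran from -0.46 ± 0.644 for *Phkg1* to 0.51 ± 0.567 for *Phka1*, the latter being 0.080 without WT PC replicate 2. For *Pygb* the interaction was -0.0026 ± 0.231, so its KO effect was estimated as nearly equal in PCs and VMs, with a 95% interval of the ratio of folds from 0.711 to 1.40. For *Ugp2* it was 0.06 ± 0.285.

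The rest of the pathway was read from 3 lists. Of 10 other glycogen enzymes and carriers, 9 were tested in PCs against VMs over both genotypes and 0 were called, 1 being higher and 2 lower at an unadjusted p under 0.05, with a median log2 difference of -0.31. The pair with the smallest p-values were *Pgm1*, the phosphoglucomutase that links glucose 1-phosphate to glycolysis, at -0.38 ± 0.142 (adjusted p = 0.256), and *Phka2*, the liver-type counterpart of *Phka1*, at 0.59 ± 0.232 (adjusted p = 0.296, edgeR quasi-likelihood test). Without WT PC replicate 2, *Phka2* was at 0.70 ± 0.191 and passed the adjustment (adjusted p = 0.0445, same test), which it did in 1 of 18 alternative fits (adjusted p from 0.0445 to 0.574). *Pgm1* had 171 to 200 normalized counts in WT PCs, 168 to 237 in KO PCs, 231 to 269 in WT VMs and 222 to 268 in KO VMs. *Phka2* had 75.2 to 192 in WT PCs, 80.7 to 149 in KO PCs, 70.1 to 100 in WT VMs and 86.8 to 100 in KO VMs, so its PC libraries were spread widely.

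Taking both regulatory subunits per kilobase, the ratio of *Phka1* to *Phka2* was 1.20, 0.328 and 0.833 in WT PCs and 1.34, 2.46 and 1.06 in KO PCs. It was 1.83, 2.07 and 2.43 in WT VMs and 2.27, 1.79 and 2.14 in KO VMs. The WT PC libraries, replicate 2 or not, lay below all VM libraries, while KO PC replicate 2 lay above all of them.

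Among 22 regulators of glycogen metabolism, 18 were tested and 0 were called in PCs against VMs, with a median log2 difference of 0.0021. Glycogen-targeting subunits of protein phosphatase 1, which bring the phosphatase to glycogen, had the smallest p-values. *Ppp1r3b* stood at 0.74 ± 0.231 (fold 1.67, 95% interval 1.19 to 2.34; adjusted p = 0.144, edgeR quasi-likelihood test) and the muscle form *Ppp1r3a* at -0.30 ± 0.119 (fold 0.813, 95% interval 0.683 to 0.968; adjusted p = 0.305). The *Ppp1r3b* difference passed the adjustment in 3 of 18 alternative fits (adjusted p from 0.0175 to 0.297): at 0.76 by DESeq2 (adjusted p = 0.0447), at 0.91 by limma voom (adjusted p = 0.0175) and at 0.79 by edgeR without WT PC replicate 2 (adjusted p = 0.0405). *Ppp1r3a* passed in KO alone by DESeq2, at -0.42 (adjusted p = 0.0444), which was 1 of 13 alternative fits there (adjusted p from 0.0444 to 0.646). *Ppp1r3b* had 126 to 210 normalized counts in WT PCs and 108 to 137 in KO PCs, against 48.8 to 127 in WT VMs and 59.4 to 82.6 in KO VMs, so that PCs and VMs overlapped in WT and not in KO. Per kilobase *Ppp1r3a* was the more abundant of the pair, at 357 against 26.4.

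Of 19 genes of glucose uptake and glycolysis, all 19 were tested and 0 were called in PCs against VMs, with a median of -0.07. Within genotypes the medians were 0.04 in WT and -0.20 in KO, where 18 of 19 estimates were negative and the median of all genes was 0.01. Of all genes tested in KO, 51.3% had a positive estimate. Without WT PC replicate 2 the middle estimate of the list in WT was that of *Pgam2*, at -0.054. *Hk2*, a hexokinase of insulin-sensitive tissues, was at -0.40 ± 0.140 (adjusted p = 0.210, edgeR quasi-likelihood test). It had 509 to 932 normalized counts in WT PCs and 946 to 1038 in KO PCs, against 953 to 1104 in WT VMs and 1090 to 1320 in KO VMs. *Pfkp*, a phosphofructokinase isoform, was at 0.69 ± 0.353 (adjusted p = 0.469), with its highest value, 417, in WT PC replicate 2 against at most 126 in the other 11 libraries, and at 0.18 without that library. In KO against WT over both cell types, 0 genes were called in each of the 3 lists, with medians of 0.03 for the other enzymes, -0.03 for the regulators and 0.07 for glucose uptake and glycolysis. By cell type, the median of the last list was -0.11 in PCs and 0.14 in VMs, where 17 of 19 estimates were positive, 2 had an unadjusted p under 0.05 and the median of all genes was -0.02. Of all genes tested in VMs, 47.0% had a positive estimate and 5.14% an unadjusted p under 0.05. Without WT PC replicate 2 the middle estimate of the list in PCs was that of *Hk1*, at -0.062.

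**Figure D5:**
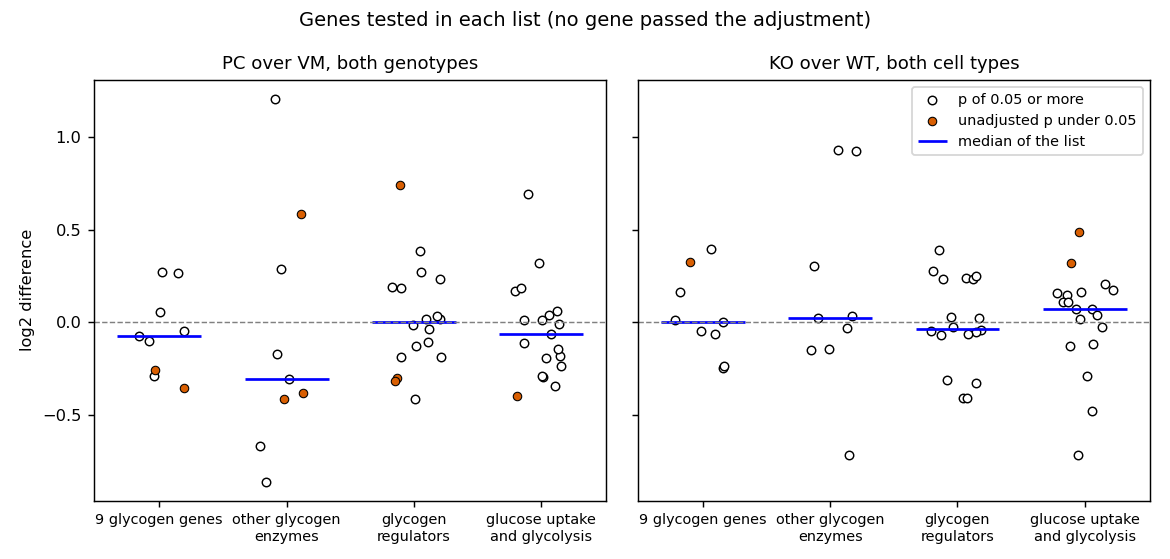
Log2 difference (vertical axis) of every gene tested in 4 lists, in PCs over VMs across both genotypes (left) and in KO over WT across both cell types (right). Filled points had an unadjusted p under 0.05, blue lines are list medians between -0.31 and 0.07, and no point passed the adjustment in these edgeR fits of all 12 libraries.

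The 9 genes did not vary as a block over the libraries. Pearson's r of their log2 values between pairs of genes, over the 12 libraries, ran from -0.82 to 0.71 with a median of 0.05 over the 36 pairs. The libraries share depth differences and cell makeup, and r is given as a description. *Gyg* and *Phka1*, the pair at the low end, take opposite extremes in WT PC replicate 2, and their r was 0.07 without it. *Pygb* with *Phka1* was at the high end, at 0.67 without that library, and the 36 pairs then ran from -0.77, for *Gbe1* and *Phkg1*, to 0.67. Among 8352 genes, those most like *Pygb* over the 12 libraries were *Sesn1* (r = 0.96) and *Atp2a2* (r = 0.91), the calcium pump of the sarcoplasmic reticulum. For *Pygm* they were *Des* (r = 0.89), the muscle intermediate filament desmin, and *Stip1* (r = 0.87). For *Ugp2* they were *Ptcd3* (r = 0.96) and *Prkaa2* (r = 0.91), a catalytic subunit of AMP-activated kinase. *Gys1* was nearest to *Kars* and *Cox5b* (both r = 0.86), *Gbe1* to *Skp1a* (r = 0.91) and *Stom* (r = 0.90), and *Gaa* to *Epas1* (r = 0.82) and *Prkrip1* (r = 0.80). *Gyg* was nearest to *Mrpl43* (r = 0.97) and *Pradc1* (r = 0.95), *Phka1* to *Ppara* and *Txn1* (both r = 0.99), and *Phkg1* to *Rpl28* (r = 0.80) and *Maf* (r = 0.76). WT PC replicate 2 lies far from the other libraries for *Gyg* and *Phka1*. Without it r was 0.90 with *Mrpl43* and 0.83 with *Pradc1* for *Gyg*, and 0.82 with *Ppara* and 0.65 with *Txn1* for *Phka1*, and the genes were not chosen again.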

How the data were processed

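PCs and VMs sorted from WT and *Ncam-1* KO hearts gave 12 libraries, and groups and replicate numbers follow the sample titles. For each, the authors deposited raw counts of read pairs per gene, made with STAR and HTSeq against mm10, without normalization. Pairs that HTSeq assigned to no gene stayed out of every fit and were used only for the share not aligned. Gene positions, lengths and sequences came from GENCODE release M21 of GRCm38, which lacks 382 of the 48526 identifiers. All 95 genes of the lists matched.

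In R 4.3.3, edgeR 4.0.16 was run with TMM normalization, genes with a mean normalized count above 5, glmQLFit and glmQLFTest, and Benjamini-Hochberg adjustment over all genes tested, at 0.05. Comparisons within 1 genotype or cell type used those 6 libraries, and the others all 12, with genotype or cell type as a term. Log2 values for correlations took CPM + 1 and genes with a mean normalized count above 20. Normalized counts were scaled by TMM over the 12 libraries. Simulated counts with known changes were put through the same steps. For KO against WT PCs, 12% of genes with a true log2 change of 1 were called at a dispersion (spread between replicates) of 0.1. At 0.4 it was 0%. With a true change of 2 the shares were 94% and 3%. For PCs against VMs over both genotypes they were 44% and 0% at a change of 1, and 100% and 38% at 2. Changes of such size could thus go uncalled at these dispersions. Every simulated gene had the same dispersion, which was not matched to that of the 9 genes. Their SE was 0.111 to 0.316 (median 0.155) in PCs against VMs over both genotypes. In KO against WT PCs it was 0.211 to 0.526 (median 0.280). The simulated shares are therefore not the shares for these 9 genes. Alternatives were DESeq2 1.42.0, its size factors in edgeR, no filter, limma 3.58.1 voom with sample quality weights, mitochondrial genes left out, a replicate block, 1 fit of all 12 libraries, and each library left out.

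Deviations of same-numbered WT PC and WT VM libraries from their group means correlated at 0.11 to 0.25 over 8352 genes, above 0.1 in 3 of 3 pairs, so the numbers were taken to pair the WT libraries; in KO they did so in 1 of 3. Same-numbered KO and WT libraries correlated at -0.02 to 0.14 in PCs and -0.03 to 0.08 in VMs, and were not taken as pairs. Source names number the second and the third WT library of each cell type differently from the titles, which leaves the pairs within WT as they are and alters which KO and WT libraries share a number, and so the replicate block across genotypes. No 2 libraries were identical, and replicates differed by at least 7.90 in chi-square per degree of freedom. Whether replicates came from separate animals is not given in the sources used here, so p-values measure only the spread between these samples.

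The genes and lists were chosen with earlier results of these data known. Of the other lists, the genes with an adjusted p under 0.05 in any comparison and the 2 with the smallest p in PCs against VMs over both genotypes were to be named. Some genes were left out of the lists and are not reported here.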

Additional observations from a re-analysis of the deposited data

How the results depend on the processing

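In all 113 fits, over 7 comparisons and every alternative, 0 of the 9 genes were called, and the smallest adjusted p of any of them was 0.0676 (*Ugp2*, PCs against VMs, limma voom with sample quality weights). Direction was followed for *Pygb* and *Ugp2* in every comparison. For all 9 genes it was followed in PCs against VMs over both genotypes and in KO against WT over both cell types. A few other comparisons of *Gyg*, *Phka1*, *Phkg1* and *Gaa* were included, and the rest were not counted. Of these 565 log2 differences under alternatives, 529 kept their direction and 36 turned. A library was left out in 28 of the 36, and the cause was not tested. PC over VM, *Gys1* was at -0.0030 under voom and between -0.069 and 0.15 with each library left out, and *Gyg* between -0.22 and 0.0096. KO over WT in both cell types, *Gbe1* was at -0.017 under DESeq2, -0.020 under its size factors and between -0.071 and 0.13 with each library left out, *Gaa* at -0.0022 under DESeq2, -0.043 under voom and between -0.061 and 0.10, *Pygm* between -0.12 and 0.0064, and *Phkg1* between -0.27 and 0.14. *Ugp2* in PCs lay between -0.32 and 0.014. The interaction of *Pygb* was 0.0025 without mitochondrial genes and between -0.095 and 0.10 with each library left out, and that of *Ugp2* between -0.058 and 0.30.

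The replicate block called 0 of the 9 genes in every comparison, as the unblocked fits did. Under it *Gbe1* was at -0.0015 (KO over WT in both cell types) and the interaction of *Pygb* at 0.013.

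The *Pygb* difference between KO and WT over both cell types kept an unadjusted p under 0.05 in 18 of 18 alternative fits (0.27 to 0.36), with an adjusted p of 0.316 or more. That comparison was added with the values known. The other fits entered PC and VM libraries as independent, and the replicate block joined KO and WT libraries that were not taken as pairs. In the planned comparisons the unadjusted p of *Pygb* between KO and WT VMs was under 0.05 in 9 of 13 alternative fits. It was so in 3 of 6 with a library left out (up to 0.130), and between KO and WT PCs in 0 of 13. For PCs against VMs over both genotypes the unadjusted p of *Pygb* was under 0.05 in 13 of 18 and that of *Ugp2* in 15 of 18. Calls among all genes moved by over 1.5 times: in PCs against VMs over both genotypes from 155 to 462 under DESeq2, 457 under voom, 592 without the filter and 101 with the block, and between 72 (without WT VM replicate 3) and 397 (without WT PC replicate 2). Over the alternatives that kept all libraries, calls ran from 4 to 297 in WT (13 as reported) and 1 to 326 in KO (94), and between KO and WT from 0 to 132 in PCs (0), 1 to 47 in VMs (4) and 4 to 130 over both (4), with 0 to 19 for the interaction (0); the highest count was always without the filter. With a library left out they ran from 1 (without WT VM replicate 1) to 108 (without WT PC replicate 2) in WT, 19 (without KO VM replicate 1) to 150 (without KO PC replicate 3) in KO, 0 to 4 in PCs, 2 to 10 in VMs, 4 to 12 over both and 0 to 0 for the interaction. The low counts of *Phkg1* limit what could be seen for it.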
